A study of Mus musculus with 6 samples.

Results

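Within the cardiac RNA-seq data, 410 of 8567 expressed genes were cleanly higher in Zeb2 cKO hearts: their lowest Zeb2 cKO library was above their highest Zeb2 fl/fl library. The 300 of them with the widest gap are described here and called the members. They were selected on measured values, namely raw counts without the mitochondrially encoded genes, scaled to 1000000 in each library (CPM), with a minimum of 10 CPM in all 6 libraries. The 410 genes were 4.79% of the expressed genes, and 82 genes lay the other way, cleanly lower in Zeb2 cKO. The separation of the groups is therefore the rule itself and no finding, and the members' differences are given as a description without a test. Because every member had to pass the level minimum in all 6 libraries, genes that were low in one genotype could not enter.

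The table holds 38293 genes in 3 Zeb2 fl/fl libraries, the controls, and in 3 Zeb2 cKO libraries, all from C57BL/6J (backcrossed) mice 14 days after permanent occlusion of the LAD coronary artery (myocardial infarction, MI). Both groups carried floxed Zeb2 alleles, and the Zeb2 cKO mice also carried a Cre recombinase driven by the murine Myh6 promoter, which is active in cardiomyocytes. The labels call the control group WT. Effects of the Cre transgene and of the deletion cannot be told apart in this design. The labels place the tissue at the border of the infarct, whereas the methods of the study name the remote zone. RNA came from whole tissue, so fewer cells of a type and less RNA per cell cannot be told apart.

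Zeb2 (ENSMUSG00000026872, chr2:44983632-45117395 of GRCm38, minus strand) was at 161, 346 and 193 CPM in the controls and 161, 201 and 188 CPM in Zeb2 cKO, in the order of the replicates. The groups overlapped, and Zeb2 fl/fl replicate 2 stood above the other 5 libraries. The means were 233 ± 98.9 CPM and 183 ± 20.8 CPM (SD, n = 3 each), and the log2 fold change fitted by edgeR was -0.33 with a standard error of 0.25. Without Zeb2 fl/fl replicate 2 it was -0.0058. Counts outside the mitochondrially encoded genes were 14301225 to 14710669 in the controls and 15640384 to 19024394 in Zeb2 cKO, so every Zeb2 cKO library was the deeper one. The mitochondrially encoded genes took 60.5% to 67.0% of all counts. Zeb2 fl/fl replicate 2 also stood apart in cell type markers. Its summed fibroblast markers were at 34746 CPM, beside 6331 and 7713 CPM in the other Zeb2 fl/fl and 7060 to 8686 CPM in the Zeb2 cKO libraries. Its summed cardiomyocyte markers were at 121553 CPM, beside 181428 to 209529 CPM in the other 5 libraries.

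ZEB2 is a zinc finger and homeobox transcription factor that is known mainly as a repressor. Its zinc finger clusters bind CACCT sites, often as the E-box CACCTG, and it is best known for epithelial to mesenchymal transition and for neural crest development. The adult heart tissue that was sequenced draws its RNA largely from cardiomyocytes, in which mitochondrial energy metabolism, ion channels, contractile proteins and protein turnover take a large place.

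The promoters of the 5 members with the widest gap and a RefSeq promoter sequence are printed because they belong to the genes that separated the genotypes most. A sixth, that of Polr1d, a subunit shared by RNA polymerases I and III, is printed because it held the most CACCT sites, 4, among the promoters of the 40 members with the widest gap. Each covers 250 bases before and 50 bases after the RefSeq start (GRCm38.p6), 5′ to 3′ on the strand of the gene. Capitals mark CACCT or its reverse complement AGGTG. The regions are chr9:108094431-108094730 (minus) for Apeh, chr9:32344295-32344594 (minus) for Kcnj5, chr2:127656646-127656945 (minus) for Mal, chr11:120731972-120732271 (minus) for Cbr2, chr19:46707208-46707507 (plus) for As3mt and chr5:147077096-147077395 (plus) for Polr1d.
Apeh: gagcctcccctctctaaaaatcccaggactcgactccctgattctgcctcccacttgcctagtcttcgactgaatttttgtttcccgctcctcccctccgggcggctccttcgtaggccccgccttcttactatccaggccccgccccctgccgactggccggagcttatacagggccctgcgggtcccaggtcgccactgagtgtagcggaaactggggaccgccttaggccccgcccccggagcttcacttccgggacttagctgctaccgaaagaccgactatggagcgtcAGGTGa
Kcnj5: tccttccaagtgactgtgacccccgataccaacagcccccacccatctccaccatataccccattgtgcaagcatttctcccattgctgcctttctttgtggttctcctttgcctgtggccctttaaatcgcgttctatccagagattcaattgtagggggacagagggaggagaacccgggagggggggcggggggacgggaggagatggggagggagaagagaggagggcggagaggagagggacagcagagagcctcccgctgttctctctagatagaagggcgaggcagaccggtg
Mal: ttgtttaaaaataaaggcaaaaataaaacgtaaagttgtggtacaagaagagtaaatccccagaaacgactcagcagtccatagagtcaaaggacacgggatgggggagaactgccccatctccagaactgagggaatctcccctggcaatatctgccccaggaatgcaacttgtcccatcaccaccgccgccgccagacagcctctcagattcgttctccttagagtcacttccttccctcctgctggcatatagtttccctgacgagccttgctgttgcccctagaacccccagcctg
Cbr2: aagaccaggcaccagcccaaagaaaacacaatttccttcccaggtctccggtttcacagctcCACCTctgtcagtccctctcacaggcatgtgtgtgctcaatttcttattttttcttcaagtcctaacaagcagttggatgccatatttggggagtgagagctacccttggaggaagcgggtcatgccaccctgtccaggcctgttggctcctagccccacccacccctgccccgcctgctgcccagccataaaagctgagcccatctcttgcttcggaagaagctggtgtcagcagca
As3mt: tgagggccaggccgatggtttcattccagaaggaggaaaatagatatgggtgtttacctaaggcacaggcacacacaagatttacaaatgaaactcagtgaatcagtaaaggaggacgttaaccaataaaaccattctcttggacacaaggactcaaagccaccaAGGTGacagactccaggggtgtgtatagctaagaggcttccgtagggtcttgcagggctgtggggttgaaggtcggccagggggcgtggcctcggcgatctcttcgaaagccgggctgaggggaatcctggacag
Polr1d: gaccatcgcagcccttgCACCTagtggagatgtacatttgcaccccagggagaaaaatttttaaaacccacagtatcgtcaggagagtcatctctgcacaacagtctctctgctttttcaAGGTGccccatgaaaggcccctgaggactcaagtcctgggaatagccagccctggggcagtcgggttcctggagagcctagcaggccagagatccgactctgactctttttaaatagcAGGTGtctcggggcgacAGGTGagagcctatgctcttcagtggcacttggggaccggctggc

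Of these promoters, those of Apeh, Cbr2 and As3mt held 1 CACCT site each, and those of Kcnj5 and Mal held none. The single CACCT site of Apeh was part of an E-box, and 2 of the 4 in Polr1d were. A RefSeq promoter was matched for 235 members and for 6645 of the expressed genes. CACCT, read on both strands, was found in 50.6% of the members' promoters and in 47.0% of all promoters of expressed genes. At least 2 CACCT sites were found in 16.6% of the members' promoters and in 14.2% of all. CACCTG or CAGGTG, which contains the CACCT site, was found in 47 of the 235 promoters of members, beside 15.3% of all. Among other motifs read on both strands, CCGGAAG (the core bound by ETS factors) was in 24.7% against 19.7%, CCAAT in 41.7% against 37.9%, CACGTG in 8.09% against 10.8% and TATAAA in 7.66% against 6.80%. A match is a string of letters and not a binding site, and none of these shares was tested.

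The widest gap belonged to Apeh (ENSMUSG00000032590), which encodes an enzyme that releases acetylated amino acids from the ends of peptides. Apeh was at 20.9, 19.4 and 21.2 CPM in the controls and 38.6, 30.1 and 27.6 CPM in Zeb2 cKO. Its Zeb2 fl/fl libraries lay close together, and its lowest Zeb2 cKO library was 30.3% above the highest of them. Kcnj5 (ENSMUSG00000032034) encodes a subunit of the acetylcholine-gated potassium channel of the heart, and its transcript was at 46.8, 31.7 and 47.3 CPM in the controls and 87.02, 61.96 and 58.3 CPM in Zeb2 cKO. Zeb2 cKO replicate 1 was the highest library for both genes, and for Kcnj5 Zeb2 fl/fl replicate 2 was the lowest. Mal, whose product is a membrane protein of lipid rafts, was at 28.6, 21.7 and 35.3 CPM in the controls and 57.3, 42.8 and 43.9 CPM in Zeb2 cKO. The mean of the Zeb2 cKO libraries was 56.6% higher for Apeh, 64.7% for Kcnj5 and 68.3% for Mal, which corresponded to edgeR log2 fold changes of 0.64 (SE 0.18), 0.71 (SE 0.26) and 0.74 (SE 0.24).

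Cbr2, a carbonyl reductase, was at 17.6, 11.4 and 17.6 CPM in the controls and 21.2, 21.5 and 21.2 CPM in Zeb2 cKO. The Zeb2 cKO libraries were nearly equal and the spread lay in Zeb2 fl/fl replicate 2. Nrbp2, a kinase-like protein, was at 25.3, 20.2 and 22.6 CPM in the controls and 34.7, 30.4 and 32.01 CPM in Zeb2 cKO, and As3mt, a methyltransferase that acts on arsenic, was at 35.03, 34.5 and 41.6 CPM in the controls and 59.1, 54.2 and 49.4 CPM in Zeb2 cKO. Clpx, the unfolding subunit of the mitochondrial ClpXP protease, was more abundant than the rest of this group, at 113, 78.2 and 109 CPM in the controls and 144, 134 and 134 CPM in Zeb2 cKO. Plekha8, which carries glycosphingolipids to the Golgi, was at 23.2, 24.5 and 22.9 CPM in the controls and 28.6, 28.96 and 29.1 CPM in Zeb2 cKO. Here the 3 libraries of each genotype differed little from each other, and Zeb2 fl/fl replicate 2 was the highest of its group. The gap was 20.4% for Cbr2, 19.9% for Nrbp2, 18.8% for As3mt, 17.95% for Clpx and 16.6% for Plekha8.

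Mapk10, the stress kinase JNK3, had one of the larger mean differences in this group, at 14.9, 10.5 and 17.6 CPM in the controls and 29.2, 20.5 and 27.8 CPM in Zeb2 cKO, that is 80.4% higher. Irx4, a homeobox factor of the ventricular myocardium, was at 37.1, 16.7 and 37.3 CPM in the controls and 53.6, 42.5 and 43.8 CPM in Zeb2 cKO. In Irx4 the Zeb2 fl/fl replicates 1 and 3 agreed while replicate 2 was under both, and the Zeb2 cKO mean was 53.4% above all 3 and 25.2% above replicates 1 and 3. Klhdc8a, a Kelch-repeat protein, had the same shape, at 43.5, 16.99 and 38.4 CPM in the controls and 50.6, 51.7 and 48.8 CPM in Zeb2 cKO. Gpt2, the mitochondrial alanine aminotransferase, was at 29.3, 19.1 and 28.9 CPM in the controls and 45.7, 39.1 and 33.1 CPM in Zeb2 cKO, and its mean was 52.5% higher. Mtm1, a phosphoinositide phosphatase whose loss causes a myopathy, was at 36.2, 33.2 and 36.2 CPM in the controls and 41.2, 44.6 and 40.8 CPM in Zeb2 cKO, which was a small difference of 19.9% between groups with little spread.

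The rest of the 20 widest gaps spanned several functions. Pmm2, which makes the mannose donor precursor of protein glycosylation, was at 43.3, 33.99 and 39.4 CPM in the controls and 61.8, 50.3 and 54.1 CPM in Zeb2 cKO. Qsox2, a sulfhydryl oxidase, was at 25.9, 23.5 and 24.9 CPM in the controls and 35.5, 30.1 and 30.6 CPM in Zeb2 cKO, and Vamp1, a SNARE protein of vesicle fusion, was at 12.1, 12.3 and 12.03 CPM in the controls and 15.5, 14.6 and 14.03 CPM in Zeb2 cKO. Aimp2, a scaffold of the multi-tRNA synthetase complex, was at 13.96, 12.6 and 13.1 CPM in the controls and 17.5, 15.7 and 18.9 CPM in Zeb2 cKO. The mean differences of these 4 genes were 42.4%, 29.5%, 21.4% and 31.3%. Wdr83 and Jmjd8 were 37.2% and 25.98% higher in the mean. Pisd-ps1, a pseudogene of phosphatidylserine decarboxylase, was at 18.1, 17.1 and 16.6 CPM in the controls and 20.5, 30.4 and 23.1 CPM in Zeb2 cKO, and 81.1% of its longest transcript was near-identical to other annotated transcripts, so its reads could be divided between copies. Shared or overlapping stretches also covered 45.8% of Jmjd8, 41.2% of Aimp2, 24.01% of Wdr83 and 16.1% of Qsox2.

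**Figure D1:**
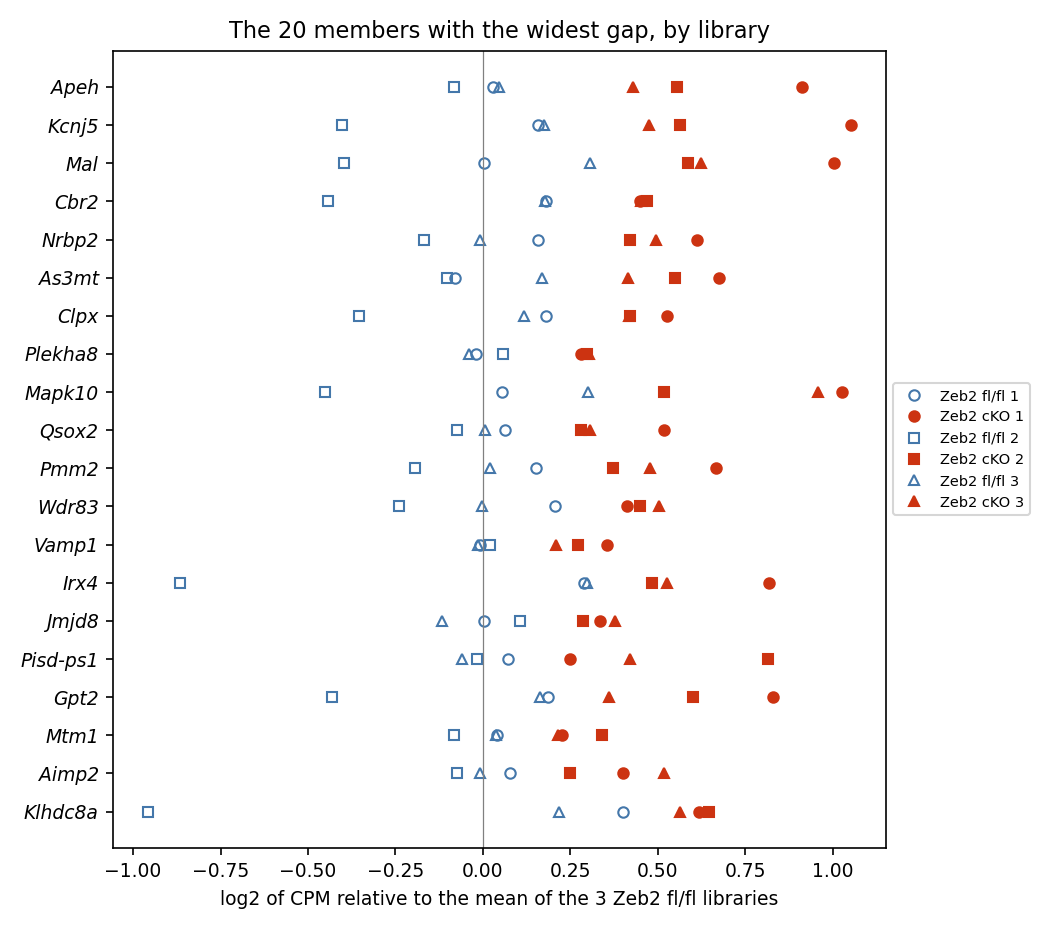
Each row is 1 of the 20 members with the widest gap, and the horizontal axis gives log2 of CPM relative to the mean of the 3 Zeb2 fl/fl libraries; open symbols are Zeb2 fl/fl and filled symbols Zeb2 cKO libraries. The groups are separate by choice of the genes, Zeb2 fl/fl replicate 2 (open squares) is far to the left for Irx4 and Klhdc8a, and Zeb2 cKO replicate 1 is far to the right for Apeh, Kcnj5 and Mal.

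Most gaps were narrow. Over the 300 members the lowest Zeb2 cKO library was 1.40% to 30.3% above the highest Zeb2 fl/fl library, with a median of 4.38%. The gap was over 5% in 121 members, over 10% in 35 and over 20% in 4. The mean of the Zeb2 cKO libraries was 4.50% to 151% above that of the Zeb2 fl/fl libraries (median 18.5%, beside 0.495% over all expressed genes). It was over 20% higher in 137 members and over 50% higher in 19. The edgeR log2 fold change was 0.06 to 1.30 with a median of 0.24, where the median over all expressed genes was 0.0047. Counting error alone was of the size of many gaps: the gap exceeded 1.96 of its counting standard errors in 27 members and 1 of them in 106. Counting errors do not include the spread between mice or effects of amplification.

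**Figure D2:**
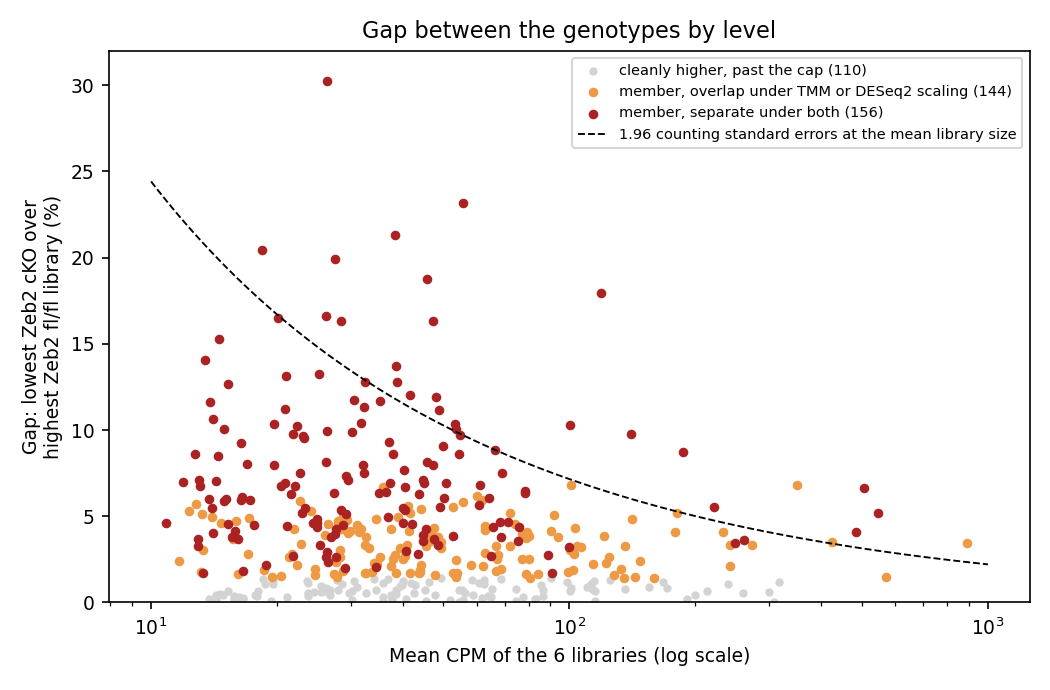
The vertical axis gives the gap between the lowest Zeb2 cKO and the highest Zeb2 fl/fl library in percent and the horizontal axis the mean CPM of the 6 libraries on a log scale; each point is a gene, and the dashed line is the gap that counting error alone would cover at the mean library size. Most of the 300 members lie under the line, and the 110 genes past the cap lie at the bottom, under 1.40%.

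The members just inside the limit were Mrpl51, Dctn2 and Ckap5. Ckap5, a microtubule polymerase, was at 159.7, 139.6 and 159 CPM in the controls and 162, 165 and 169 CPM in Zeb2 cKO, and Dctn2, a dynactin subunit, was at 136, 123 and 134 CPM in the controls and 138, 138 and 139 CPM in Zeb2 cKO. Their gaps were 1.40% and 1.42%, and that of Mrpl51 was 1.44%. Of the genes that failed to separate, the closest were Tbc1d22a, Nudt12 and Wdr5. Wdr5, a core subunit of histone methyltransferase complexes, was at 33.9, 31.7 and 33.8 CPM in the controls and 36.9, 37.2 and 33.9 CPM in Zeb2 cKO, so that 1 Zeb2 cKO library met the highest Zeb2 fl/fl library. Mean differences of Tbc1d22a, Nudt12 and Wdr5 were 7.66%, 10.4% and 8.72%, of the same order as those of the members at the limit.

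The members did not share 1 profile across the libraries. Zeb2 fl/fl replicate 2 was the lowest control library in 204 members, 68.0%, beside 36.7% of all expressed genes. It was more than 10% under the mean of Zeb2 fl/fl replicates 1 and 3 in 143 members (47.7%), beside 30.7% of all expressed genes. It was within 10% of that mean in 144 members and more than 10% above it in 13. In the 143 members the median difference of the means was 24.6%, and 13.5% when Zeb2 cKO was set against replicates 1 and 3 alone. In the 144 it was 13.7% and 13.9%. Summed over all members, the level was 17861, 14956 and 17809 CPM in the controls and 21019, 20076 and 20072 CPM in Zeb2 cKO. The Zeb2 cKO mean was a median of 14.0% above replicates 1 and 3 (3.21% over all expressed genes), and the median log2 fold change of the members fell from 0.24 to 0.13 when Zeb2 fl/fl replicate 2 was left out. That library carried the higher fibroblast and lower cardiomyocyte markers given above, and its summed macrophage markers were at 2975 CPM beside 700.5 to 960.0 CPM in the other 5 libraries. Summed markers of the atrium and conduction system separated the genotypes, at 970, 2359 and 920 CPM in the controls and 587, 503 and 631 CPM in Zeb2 cKO. The part of these markers in the members' values was not tested. Of the marker lists of all cell types examined, 0 genes were members. These lists were short, from 0 expressed genes for neutrophils to 20 for cardiomyocytes. At the 3.50% of all expressed genes few members could be expected in them.

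There were 10 members with Zeb2 fl/fl replicate 2 at less than 50% of the other controls, and they included several with the largest mean differences. The genes in this paragraph other than Scn4a were picked after their values were seen. Scn4a, a voltage-gated sodium channel best known from skeletal muscle, was at 45.1, 12.98 and 39.997 CPM in the controls and 47.2, 51.1 and 55.2 CPM in Zeb2 cKO. Without replicate 2 its mean difference was 20.2% in place of 56.4%. Epn3, an epsin of clathrin-coated pits, was at 45.9, 14.2 and 35.3 CPM in the controls and 90.9, 50.4 and 91.8 CPM in Zeb2 cKO, and Hemk1, a methyltransferase of mitochondrial release factors, was at 30.5, 10.3 and 20.3 CPM in the controls and 42.5, 31.9 and 32.3 CPM in Zeb2 cKO. For Epn3 the difference was 144%, and 91.3% without replicate 2. Sh2d4a, an adaptor with an SH2 domain, had the largest mean difference of all members, 151%, from 38.7, 16.04 and 29.8 CPM in the controls and 91.4, 40.02 and 80.4 CPM in Zeb2 cKO. Its gap was only 3.53%, since Zeb2 cKO replicate 2 lay close to Zeb2 fl/fl replicate 1. Outside these 10 genes, Sh3rf2, a ubiquitin ligase with SH3 domains, was at 54.2, 43.7 and 32.4 CPM in the controls and 94.4, 79.03 and 57.6 CPM in Zeb2 cKO. Here the difference was nearly the same with and without replicate 2, 77.3% and 77.8%.

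In the 13 members with replicate 2 more than 10% above the other controls, the Zeb2 cKO libraries were still higher than it. The 3 genes given as examples were picked after their values were seen. Rint1, which takes part in transport between endoplasmic reticulum and Golgi, was at 26.4, 31.7 and 24.8 CPM in the controls and 37.2, 37.9 and 35.3 CPM in Zeb2 cKO. Zfp949, a zinc finger protein, was at 13.6, 15.4 and 13.8 CPM in the controls and 30.4, 23.8 and 15.8 CPM in Zeb2 cKO, with a wide spread within Zeb2 cKO. Lamtor4, a subunit of the Ragulator complex on lysosomes, was at 26.2, 28.3 and 24.96 CPM in the controls and 35.4, 31.01 and 29.8 CPM in Zeb2 cKO. All 13 stayed separate under both other scalings described below, beside 79 of the 144 and 64 of the 143. Both scalings lower Zeb2 fl/fl replicate 2 against the other libraries. Its TMM factor was 1.09, beside 0.957 to 1.01 in all others. At similar counts, its DESeq2 size factor was 0.999 beside 0.856 and 0.873 in the other controls. That all 13 stayed separate therefore follows in part from how the members were grouped. Zeb2 cKO replicate 1 was the highest of its group in 161 members, and it was more than 20% above the other Zeb2 cKO libraries in 32, Kcnj5, Apeh and Mal among them. In 211 members it was within 10% of them.

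**Figure D3:**
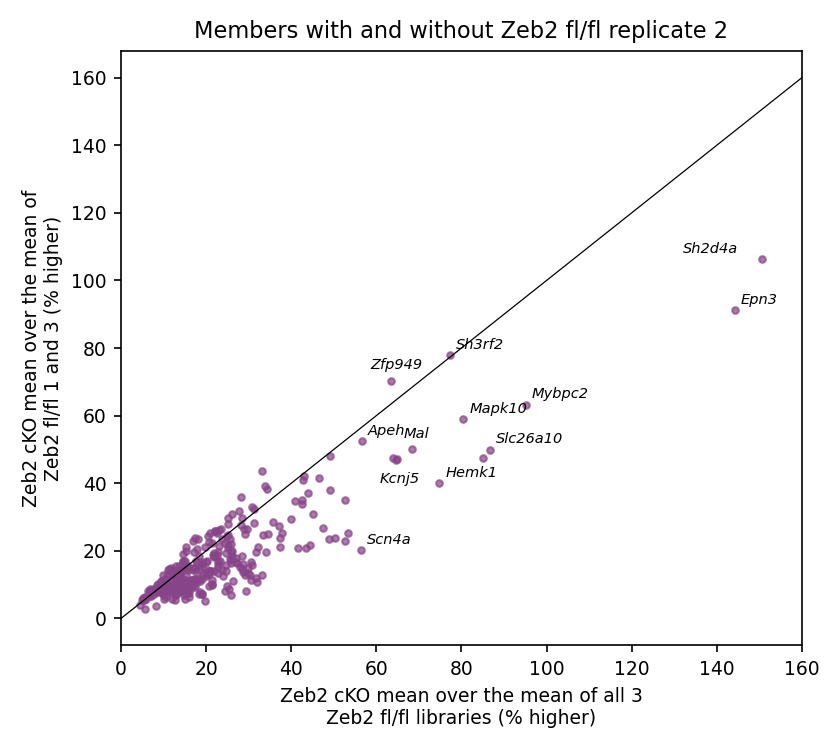
Each point is a member; the horizontal axis gives the Zeb2 cKO mean over the mean of all 3 Zeb2 fl/fl libraries in percent higher, the vertical axis the same over Zeb2 fl/fl replicates 1 and 3, and the line marks equal values. Members with the largest mean differences, such as Sh2d4a and Epn3, lie under the line, whereas Sh3rf2 and Zfp949 lie on or above it.

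The members were set beside gene lists, as counts without a test. All 300 were 3.50% of the expressed genes, which is the share to read the counts against. Of the members, 49 (16.3%) were in at least 1 of the pathway lists, beside 15.0% of all expressed genes. With the lists added after the members had been seen, and so drawn partly from them, it was 86 (28.7%) beside 17.8%, and 214 members were in none.

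Enzymes that reduce or oxidize carbonyls, aldehydes and quinones gave 8 members of 33 expressed genes, 24.2%. The list was added after the members had been seen, so this share is a description of a choice. These enzymes detoxify reactive products of lipid peroxidation and of xenobiotics. Besides Cbr2, Nqo1, a quinone reductase and a classical target of NRF2, was at 60.2, 53.8 and 63.4 CPM in the controls and 71.2, 80.9 and 69.02 CPM in Zeb2 cKO, and Aox1, aldehyde oxidase, was at 42.1, 40.8 and 48.2 CPM in the controls and 53.9, 51.1 and 64.2 CPM in Zeb2 cKO. The mean differences were 24.7% and 29.2%. Akr1c14, Dhdh and Adh5 were 27.7%, 26.2% and 17.7% higher, Nqo2 19.01% and Aldh7a1 only 5.45%. Of the 8 members, 5 remained separate under each of the 2 other scalings. In the list of antioxidant and NRF2 genes, 2 of 40 were members, Nqo1 and Cat. Catalase, Cat, was at 234, 225 and 249 CPM in the controls and 257, 261 and 266 CPM in Zeb2 cKO, a difference of 10.9% with little spread in either group. The remaining 38 genes of that list were not members, and its median difference over all 40 was 7.35%.

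Protein turnover was represented by small differences in proteasome subunits. The 26S proteasome degrades ubiquitin-tagged proteins, and its ATPases unfold them. Of 46 expressed genes listed for the proteasome, ubiquitin ligases and atrophy, 5 were members (10.9%), all proteasome subunits: Psmc5, Psmd6, Psmd4, Psmc4 and Psmc3. Psmc5, an ATPase of the base, was at 41.03, 45.7 and 45.9 CPM in the controls and 49.5, 50.4 and 50.7 CPM in Zeb2 cKO. Psmd6, a subunit of the lid, was at 61.9, 64.04 and 66.5 CPM in the controls and 74.9, 74.2 and 71.5 CPM in Zeb2 cKO, and Psmd4, a ubiquitin receptor, was at 93.1, 81.4 and 90.7 CPM in the controls and 100.1, 96.6 and 101 CPM in Zeb2 cKO. The differences of the means were 13.6%, 14.6% and 12.4%, and 7.76% for Psmc4 and 12.9% for Psmc3. Psmc5 and Psmd6 remained separate under both other scalings and the others did not. The median over the 46 genes of the list was 4.69%, and the larger differences of its members follow in part from the rule. In an added list limited to proteasome subunits and assembly factors, 6 of 40 were members, the sixth being the chaperone Psmg1.

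The chaperonin TRiC folds actin and tubulin, and 3 of its 8 expressed subunits were members in a list that was also added later. Cct7 was at 99.5, 88.8 and 97.5 CPM in the controls and 107, 107 and 106 CPM in Zeb2 cKO, Cct3 at 122, 107 and 131 CPM in the controls and 133, 137 and 136 CPM in Zeb2 cKO and Cct2 at 131, 132 and 147 CPM in the controls and 153, 149 and 151 CPM in Zeb2 cKO. Their gaps were 6.81%, 1.61% and 1.47%, and 0 of the 3 remained separate with DESeq2 size factors. Together with Dnajb6, Cct3 and Cct2 made up the 3 members among 38 heat shock proteins and chaperones. F-box and Kelch-type adaptors of ubiquitin ligases, an added list, gave 4 of 64: Klhdc8a, Fbxo22, Fbxo9 and Fbxo8. Fbxo22 was at 41.5, 40.4 and 42.2 CPM in the controls and 47.9, 44.8 and 46.2 CPM in Zeb2 cKO, Fbxo9 was 27.1% higher and Fbxo8 15.2%. Dynactin, the cofactor of the dynein motor and also an added list, had 2 members of 9, Dctn2 and Actr1a, the latter at 126, 129.7 and 135 CPM in the controls and 152, 151 and 148 CPM in Zeb2 cKO. For Actr1a both groups were tight, and the gap of 9.78% was over 1.96 counting standard errors.

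Factors that make and charge the translation machinery formed a further set of the added lists. Ribosome biogenesis factors gave 9 of 51 (17.6%), while 0 of 53 cytosolic ribosomal proteins were members. Nop56, a core protein of the small nucleolar particles that methylate ribosomal RNA, was at 19.3, 18.97 and 19.7 CPM in the controls and 21.9, 21.9 and 23.4 CPM in Zeb2 cKO. Bysl, needed for the small subunit, was at 23.2, 12.98 and 23.6 CPM in the controls and 26.7, 26.1 and 25.9 CPM in Zeb2 cKO, and Gnl2, a GTPase of the large subunit, was at 28.3, 28.9 and 27.3 CPM in the controls and 31.1, 30.9 and 31.2 CPM in Zeb2 cKO. Bysl depended on Zeb2 fl/fl replicate 2, with 31.6% against all controls and 12.1% against replicates 1 and 3, whereas Nop56 and Gnl2 did not. Rrp36, a further factor of the small subunit pathway, was at 10.1, 10.6 and 10.1 CPM in the controls and 12.1, 11.2 and 11.1 CPM in Zeb2 cKO. Cytosolic ribosomal proteins were a median of 12.1% lower than all 3 controls and 9.43% higher than replicates 1 and 3. Aminoacyl-tRNA synthetases and their scaffolds gave 5 of 37: Aimp2, Qars, Aimp1, Hars and Sars. Qars, the glutamine enzyme, was at 47.2, 49.6 and 46.9 CPM in the controls and 54.5, 53.1 and 53.3 CPM in Zeb2 cKO, and the differences of Aimp1, Hars and Sars were 13.9%, 6.99% and 11.5%.

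Among mitochondrial genes, subunits of the respiratory chain gave 0 members of 37 for complex I and 0 of 43 for complexes II to V, although the medians of these lists were 12.8% and 12.7% higher in Zeb2 cKO. Against Zeb2 fl/fl replicates 1 and 3 the same medians were 3.60% and 4.04%. Mitochondrial ribosomal proteins gave 6 of 72 (8.33%). Mrpl14 was at 20.7, 19.3 and 24.4 CPM in the controls and 33.2, 33.1 and 26.4 CPM in Zeb2 cKO, Mrpl16 at 38.7, 26.6 and 37.3 CPM in the controls and 40.6, 41.3 and 40.4 CPM in Zeb2 cKO and Mrpl32 at 28.6, 28.1 and 28.7 CPM in the controls and 32.4, 31.6 and 29.9 CPM in Zeb2 cKO. Mrpl14 had a difference of 44.01%, Mrpl34 of 13.1%, Mrpl12 of 10.6% and Mrpl51 of 18.3%, and only 1 of the 6 remained separate under DESeq2 size factors. Parts of Mrpl14 (16.7%) and Mrpl32 (25.2%) were shared with other annotated transcripts. Besides Clpx, Timm50, a receptor of the inner membrane import machinery, was a member among 45 genes of mitochondrial dynamics, import and quality control, at 24.98, 21.8 and 26.6 CPM in the controls and 27.3, 27.9 and 28.3 CPM in Zeb2 cKO.

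Iron-sulfur clusters are cofactors of respiratory and DNA repair enzymes, and 4 of 20 expressed genes of their assembly were members in an added list. Ciao1, of the cytosolic targeting complex, was at 43.8, 38.9 and 39.02 CPM in the controls and 53.8, 47.5 and 46.8 CPM in Zeb2 cKO. Ciapin1, of the cytosolic electron transfer step, was at 44.8, 35.8 and 48.5 CPM in the controls and 61.2, 51.2 and 53.3 CPM in Zeb2 cKO, and Cisd3, a small mitochondrial cluster protein, was at 13.1, 11.5 and 14.4 CPM in the controls and 15.6, 15.9 and 16.5 CPM in Zeb2 cKO. Lias, which makes lipoic acid, was 16.4% higher. Peroxisome biogenesis, another added list, had 2 of 10. Pex19, a chaperone of peroxisomal membrane proteins, was at 171, 127 and 180.3 CPM in the controls and 214, 192 and 188 CPM in Zeb2 cKO.

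Fuel metabolism gave single members or pairs. One member of 27 came from the tricarboxylic acid cycle, Idh3a, the catalytic subunit of NAD-dependent isocitrate dehydrogenase, at 423, 311 and 432 CPM in the controls and 483, 454 and 448 CPM in Zeb2 cKO. The difference was 18.6% against all controls and 7.83% against replicates 1 and 3. Fatty acid uptake and oxidation gave 1 of 51, Acot2, a mitochondrial acyl-CoA thioesterase, at 39.3, 25.6 and 41.8 CPM in the controls and 44.6, 43.7 and 44.9 CPM in Zeb2 cKO. Glucose uptake and glycolysis gave 2 of 25: Ldha, the A subunit of lactate dehydrogenase, at 459, 405 and 481 CPM in the controls and 501, 506 and 549 CPM in Zeb2 cKO, and Gpi1, glucose-6-phosphate isomerase, at 275, 223 and 273 CPM in the controls and 284, 289.6 and 294 CPM in Zeb2 cKO. For Acot2 58.01% and for Ldha 55.04% of the transcript was shared with paralogs or copies, so these 2 values are uncertain. Dgat1, the last enzyme of triglyceride synthesis, was 21.5% higher, and Bcat2, the mitochondrial aminotransferase of branched-chain amino acids, 25.2%. Amino acid, one-carbon and nucleotide metabolism gave 2 of 16, Aldh7a1 and Mthfd1. Mthfd1, an enzyme of the folate cycle, was at 33.7, 32.9 and 33.3 CPM in the controls and 37.5, 34.5 and 36.5 CPM in Zeb2 cKO. Under both TMM and DESeq2 scaling, described below, Acot2, Dgat1 and Bcat2 remained separate, whereas Idh3a, Aldh7a1 and Mthfd1 did so under neither. Of Ldha and Gpi1, 2 remained separate under TMM and 1 with DESeq2 size factors. Of creatine and adenylate energy transfer, 0 of 19 genes were members.

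Among 15 expressed potassium channel genes Kcnj5 was the 1 member, and among 7 sodium and HCN channels Scn4a. Calcium handling gave 2 of 40. S100a1, a calcium sensor that modulates the ryanodine receptor and SERCA, was at 450.4, 466 and 475 CPM in the controls and 616, 523 and 506 CPM in Zeb2 cKO, a difference of 18.2%, with Zeb2 cKO replicate 1 above the other 5. Itpr2, the inositol trisphosphate receptor of cardiomyocytes, was at 99.4, 98.4 and 99.01 CPM in the controls and 104, 104 and 113 CPM in Zeb2 cKO, and it was 8.05% higher. Of 60 sarcomere and Z-disc genes 1 was a member: Mybpc2, the fast skeletal form of myosin binding protein C, at 51.01, 25.2 and 47.7 CPM in the controls and 99.6, 53.9 and 88.2 CPM in Zeb2 cKO. Intercalated disc and connexin genes gave 0 of 23. The stress genes of the heart, which include the natriuretic peptides, gave 0 of 27, and the list's median was 5.82% lower in Zeb2 cKO than in all controls and 2.01% lower than in replicates 1 and 3. Solute carriers gave 5 of 120. Slc19a2, a thiamine transporter, was at 14.6, 15.4 and 16.3 CPM in the controls and 18.9, 17.3 and 20.97 CPM in Zeb2 cKO, Slc47a1, an exporter of organic cations, was at 74.7, 47.9 and 79.2 CPM in the controls and 87.2, 90.9 and 82.4 CPM in Zeb2 cKO, and Slc26a10 was at 27.9, 10.1 and 21.1 CPM in the controls and 46.6, 28.6 and 35.01 CPM in Zeb2 cKO. Slc30a1, which exports zinc, was 11.9% higher and Slc9a8, a sodium/proton exchanger, 10.7%.

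Gene regulators were spread over several families. Cardiac transcription factors gave 2 of 25, Irx4 and Meis2, the latter at 38.9, 43.03 and 43.7 CPM in the controls and 47.2, 45.8 and 44.5 CPM in Zeb2 cKO. Meis2, a homeobox cofactor, had a difference of 9.48%. Bhlhe40, a repressor of the circadian clock, was 1 of 17 clock genes, at 56.8, 55.5 and 55.6 CPM in the controls and 80.4, 59.3 and 70.2 CPM in Zeb2 cKO. Zinc finger proteins gave 8 of 194 (4.12%), a share near that of all genes. Among them Zfp617 was at 12.1, 15.97 and 15.1 CPM in the controls and 17.9, 19.9 and 17.5 CPM in Zeb2 cKO, Zfp970 was 28.8% higher, Zfp367 25.9% and Zfp597 11.1%. More than 50% of Zfp617 (51.3%) and Zfp970 (57.2%) was shared with other annotated transcripts. Histone deacetylases, an added list, gave 3 of 9. Hdac6, the cytoplasmic tubulin deacetylase, was at 23.1, 18.6 and 25.03 CPM in the controls and 26.2, 27.4 and 28.9 CPM in Zeb2 cKO. Hdac10 was at 13.9, 11.3 and 10.98 CPM in the controls and 14.6, 14.1 and 14.2 CPM in Zeb2 cKO and Hdac3, the enzyme of the NCOR complex, at 52.1, 52.1 and 47.8 CPM in the controls and 53.7, 58.2 and 53.04 CPM in Zeb2 cKO, and of the 3 only Hdac6 remained separate under both other scalings. Clk4, a kinase of splicing factors, was the 1 member of 39 splicing regulators, at 63.5, 58.1 and 59.4 CPM in the controls and 67.4, 68.03 and 68.4 CPM in Zeb2 cKO. Clk4 remained separate under both other scalings and Bhlhe40 under neither. Of the 2 cardiac transcription factors 1 remained separate under each, and of the 8 zinc finger proteins 5. EMT transcription factors and ZEB partners gave 0 of 16, noncoding RNAs of known name 0 of 11, histone genes 0 of 9 and small nucleolar and spliceosomal RNAs 0 of 9.

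Lists of signalling and stroma were short, so few members could be expected in them at the 3.50% of all expressed genes. Counts of 0 or 1 therefore say little here. Angiogenic ligands, receptors and endothelial growth genes gave 1 of 27, Nrp1, a coreceptor of VEGF and semaphorins, at 538, 458 and 530.0 CPM in the controls and 566, 569.6 and 617 CPM in Zeb2 cKO. Its difference was 14.8%, its gap 5.17%. Extracellular matrix gave 0 of 41, interferon response and antigen presentation 0 of 31, autophagy and lysosome 0 of 30 and cell cycle 0 of 12. The median of the matrix list was 46.4% lower in Zeb2 cKO than in all 3 controls and 0.535% higher than in replicates 1 and 3.

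**Figure D4:**
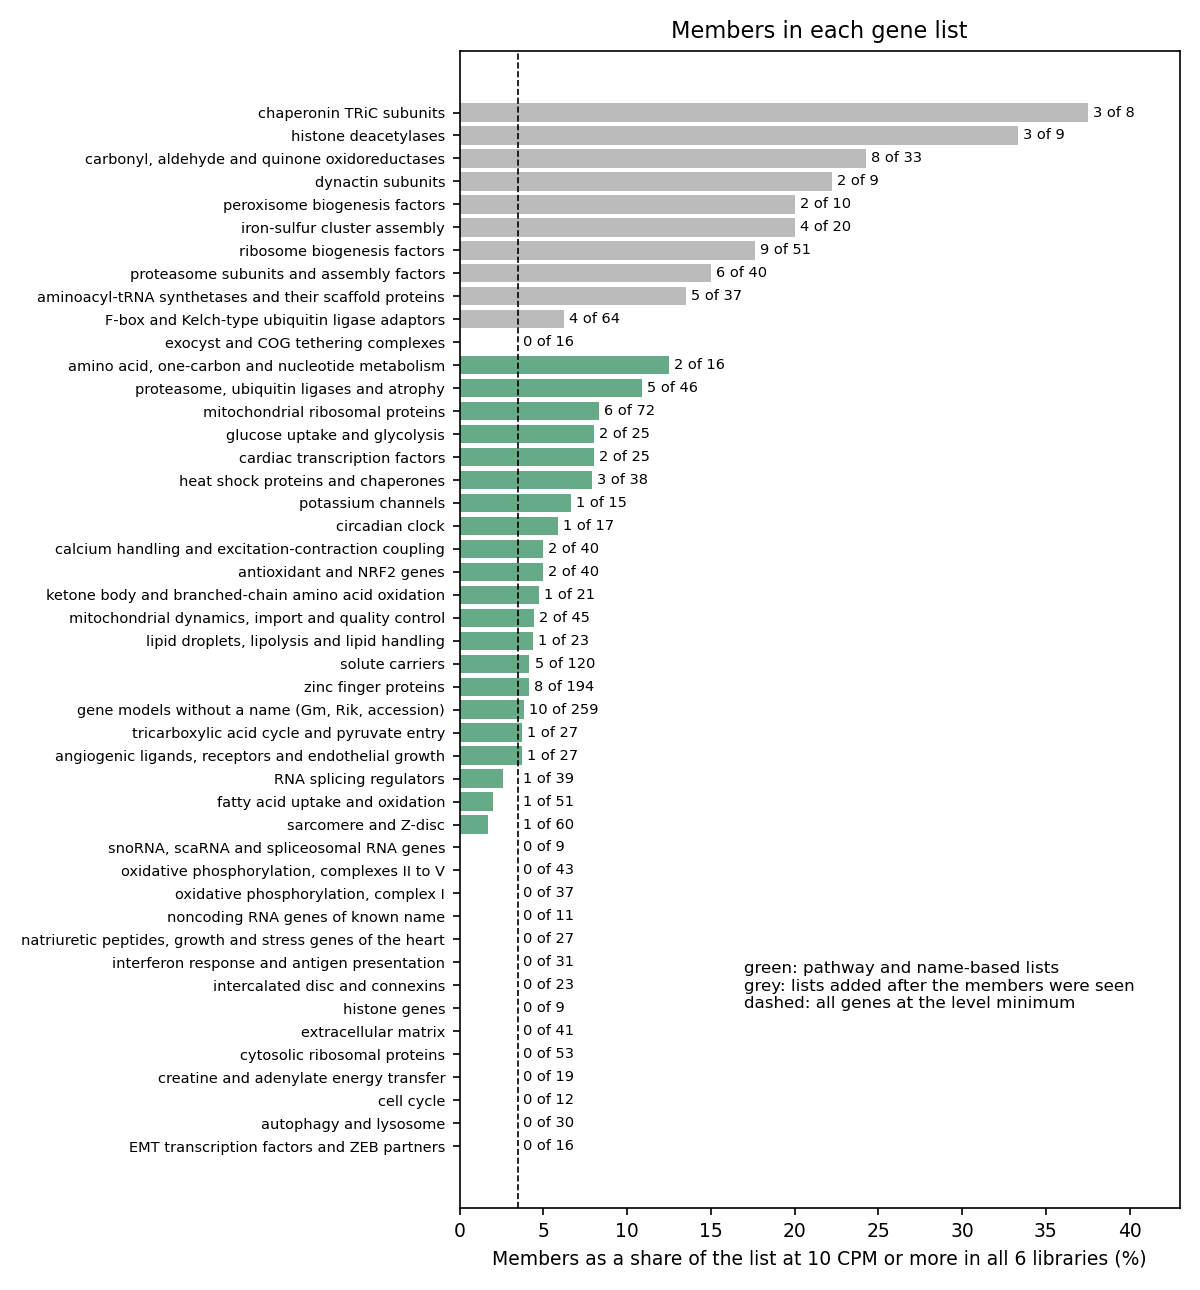
Bars give the members as a percentage of the genes of each list that reached 10 CPM in all 6 libraries, with the numbers beside them; green bars are pathway and name-based lists, grey bars are lists added after the members had been seen, and the dashed line is the 3.50% of all expressed genes. The longest bars belong to added lists of few genes, such as 3 of 8 for TRiC, and no list was tested.

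Ordered by level per kilobase of transcript, the most abundant members included S100a1, Ldha, Cat, Cd151, Ppp1ca, Idh3a, Reep5, Fyco1 and Hfe2. S100a1 reached 729 CPM per kilobase on average and Hfe2 61.4. Fyco1, an adaptor of autophagosome transport, was at 591, 356 and 579 CPM in the controls and 652, 646 and 600.1 CPM in Zeb2 cKO. Zeb2 fl/fl replicate 2 was far under all other libraries, and the gap was 1.49%. Cd151, a tetraspanin bound to laminin receptors, was at 232, 203 and 242 CPM in the controls and 260.2, 266 and 247 CPM in Zeb2 cKO, and Ppp1ca, a catalytic subunit of protein phosphatase 1, at 208, 202 and 214 CPM in the controls and 232, 245 and 226 CPM in Zeb2 cKO. Reep5, which shapes the endoplasmic and sarcoplasmic reticulum, was at 209, 196 and 225 CPM in the controls and 300.2, 234 and 234 CPM in Zeb2 cKO, and Hfe2, hemojuvelin, a coreceptor of bone morphogenetic proteins, at 127, 63.6 and 116 CPM in the controls and 165, 130.3 and 145 CPM in Zeb2 cKO. Reep5 was highest in Zeb2 cKO replicate 1, and Hfe2 was lowest in Zeb2 fl/fl replicate 2.

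Biotype and GC content, which the rule did not use, were close to those of all expressed genes, whereas exons and transcripts were shorter in the median. Of the members, 293 (97.7%) were protein coding, 7 were pseudogenes and 0 were long noncoding RNAs, beside 96.8%, 155 and 51 in the 8567 expressed genes. The median length of the exons together was 4354 bases against 5119, and that of the longest transcript 3230 against 3778. Median GC content was 49.5% against 49.1%, and 60.7% against 62.0% in the promoters. The median level was 38.1 CPM against 42.2 CPM and 9.04 against 8.71 CPM per kilobase. The members' spread was smaller than that of other genes, with a median coefficient of variation of 8.14% in the controls and 4.84% in Zeb2 cKO beside 15.4% and 8.65%. A gene with little spread within groups separates at a smaller difference, so this follows in part from the rule. Stretches of at least 75 bases and 95% identity with other annotated transcripts, overlapping genes included, were found in 136 members and covered more than 50% of 22, among them Gm9824, Gm13127 and Gm1840.

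Members lay on all autosomes and X. The highest share of expressed genes was on chromosome 8, with 26 of 453 (5.74%), and the lowest on chromosome 15 (1.85%). In 16 cases 2 neighbouring expressed genes were both members. These cases include longer runs, Arfgap2, Lrp4 and Ckap5 on chromosome 2 and Yrdc, 9930104L06Rik and Gnl2 on chromosome 4. Whether members lay closer together than other expressed genes was not tested. Only 2 of the 16 pairs had divergent starts within 1 kilobase. The genes in this comparison were picked by position and not by value: Stap2 and Mpnd lie head to head on chromosome 17, 127 bases apart, and Tmem63b and Mrpl14 overlap there by 583 bases. Stap2 was at 16.7, 12.6 and 17.8 CPM in the controls and 22.3, 18.1 and 24.4 CPM in Zeb2 cKO, and Mpnd at 32.2, 33.8 and 31.9 CPM in the controls and 39.1, 34.97 and 34.5 CPM in Zeb2 cKO, so the 2 genes differed in their order of libraries. Tmem63b was at 102, 51.3 and 90.6 CPM in the controls and 127, 122 and 104 CPM in Zeb2 cKO, with replicate 2 low, which was less marked in Mrpl14.

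The number of separated genes and their direction depended on how libraries were scaled. With CPM without the mitochondrially encoded genes, 83.3% of the genes that separated were higher in Zeb2 cKO. With these genes kept in the total it was 98.3% (522 higher, 9 lower), and the same minimum of 10 CPM then left 4959 expressed genes in place of 8567. With TMM-normalized CPM it was 67.0% (297 and 146) and with DESeq2 size factors 55.0% (236 and 193). Without the level minimum, the groups of 239, 181 and 156 members were still separate under these settings. Of these, 111, 6 and 5 members had a library under 10 CPM and would not have entered the count. The 156 members separate with DESeq2 size factors were also separate under TMM, and they held all 20 of the widest gaps and 92 of the 100 widest. A wider gap withstands a larger change of scale, so this follows from the ranking and is no further evidence for these genes. The median log2 ratio over all expressed genes lay between 0.007 and 0.046 under the 4 scalings.

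**Figure D5:**
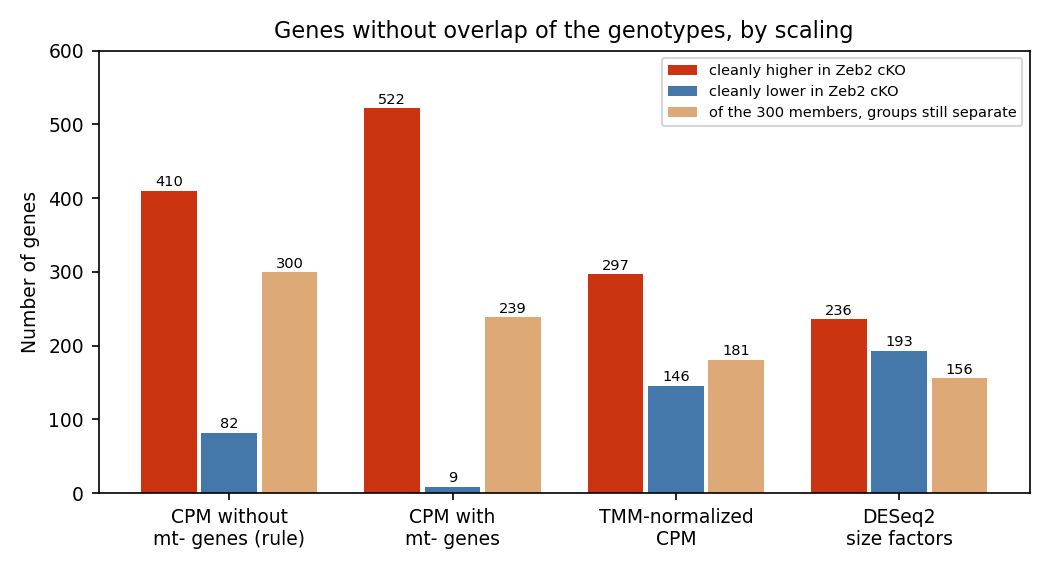
Bars count the genes without overlap between the genotypes under 4 ways of scaling the libraries, in red for higher and blue for lower in Zeb2 cKO, and in tan the members whose groups were still separate, whatever their level. The excess of higher over lower genes is 410 to 82 under the rule and 236 to 193 with DESeq2 size factors.

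Across the whole table, the quasi-likelihood test of edgeR, adjusted after Benjamini and Hochberg, found 0 of 14746 genes with an adjusted p under 0.05, which is 0% of the genes tested, so 0 members passed. DESeq2 found 2 genes, neither of them a member. At an unadjusted p under 0.05 edgeR gave 280 genes in either direction, 153 of them higher in Zeb2 cKO, which is 1.04% of the genes tested. Of the members, 41 (13.7%) were under this unadjusted threshold with edgeR and 42 with DESeq2. The rule used the same contrast, so nothing follows from the members' share. Nothing in the labels beyond the replicate number tells the animals apart, and the values describe the spread between these 6 libraries.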

How the data were processed

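RNA of 3 Zeb2 fl/fl (WT in the labels) and 3 Zeb2 cKO hearts was depleted of ribosomal RNA and sequenced from stranded libraries. The authors aligned the reads to GRCm38, counted them on Gencode M4 with the STAR workflow and deposited raw counts per gene. The aligner version and strand option are not given in the sources used here. Every column was matched to 1 sample by its label.

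Symbols and transcripts were taken from Gencode M21 (same build) by gene identifier, which gave 36429 symbols. The members and the gene lists were chosen with earlier results of these data known. Genes were named by a rule: Zeb2, the 20 widest gaps, the 10 highest levels per kilobase, up to 4 members of each list, and 3 genes on either side of the limit. Exceptions are stated, and some genes that the rule names are not reported here. The whole table was fitted with edgeR 4.0.16 (R 4.3.3; TMM, filterByExpr, quasi-likelihood test, prior count 0.125). DESeq2 1.42.0 was an alternative. Shared stretches were searched with BLAST 2.17.0 at 75 bases and 95% identity. The fits were tested on simulated data. Other alternatives changed the scaling, the level minimum, the filter, the replicate block and the libraries. Total counts were 37288174 to 51136331 per library, of which 14301225 to 19024394 lay outside the mitochondrially encoded genes and set the CPM. That depth leaves a counting error of several percent in each library for a gene near the level minimum, and more for a ratio between libraries.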

Additional observations from a re-analysis of the deposited data

How the results depend on the processing

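The count of 410 genes cleanly higher in Zeb2 cKO became 236 with DESeq2 size factors, and between 630 and 1276 when any 1 library was left out, since fewer libraries have to separate. Leaving out Zeb2 cKO replicate 3 gave 1276, Zeb2 fl/fl replicate 2 gave 1186, Zeb2 fl/fl replicate 1 gave 1056, Zeb2 fl/fl replicate 3 gave 757, Zeb2 cKO replicate 1 gave 719 and Zeb2 cKO replicate 2 gave 630. A minimum of 5 CPM gave 500, of 20 CPM 293, and a minimum on the mean 445. Of the members, 41 had an unadjusted p under 0.05 in edgeR. Without TMM it was 82, and between 7 (without Zeb2 cKO replicate 1) and 46 with 1 library left out, with 20, 23 and 24 without Zeb2 fl/fl replicate 3, Zeb2 cKO replicate 2 and Zeb2 cKO replicate 3. The 0 genes with an adjusted p became 2 with DESeq2. The median log2 fold change of the members ranged from 0.13 without Zeb2 fl/fl replicate 2 to 0.29. Without that library the fitted log2 fold changes of Dctn2 and Ckap5 turned to -0.017 and -0.0040, the lowest values with 1 library left out, where the highest were 0.14 and 0.17. Which members keep separate groups was also counted without the level minimum, an alternative chosen after seeing the data. Other causes of these changes were not tested.

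Same-numbered libraries of the genotypes came from different mice and had correlations of 0.088, -0.137 and -0.087 in their deviations from the group means, so the numbers did not pair them. With the replicate block, 32 members had an unadjusted p under 0.05, the median log2 fold change was 0.25 and 0 genes had an adjusted p under 0.05. Depth limits the narrow gaps, most of which were within counting error.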

Other observations

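A further 110 genes separated the genotypes in the same direction with gaps under 1.40% and were left out by the cap. The genes named here were picked after their values were seen. Of the 16 expressed subunits of the exocyst and COG complexes, which tether vesicles to membranes, 4 were among them: Exoc3, Exoc4, Cog4 and Cog8. This list was also added after the data had been seen, so the count describes a choice. The base to read it against is 110 of 8567 expressed genes. Exoc4 was at 112, 135 and 129 CPM in the controls and 155, 136 and 146 CPM in Zeb2 cKO, and Cog4 at 89.9, 66.2 and 88.9 CPM in the controls and 91.1, 90.6 and 92.99 CPM in Zeb2 cKO. Without Zeb2 fl/fl replicate 2 the fitted log2 fold change of Cog4 was -0.021. Those of Exoc3, Exoc4 and Cog8 were 0.066, 0.22 and 0.10. The 2 complex I genes that separated were also here. Ndufs5 was at 24.98, 16.7 and 26.5 CPM in the controls and 29.4, 28.9 and 26.8 CPM in Zeb2 cKO, and Ndufb2 at 80.7, 75.5 and 83.3 CPM in the controls and 101, 93.5 and 83.7 CPM in Zeb2 cKO.

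Some genes past the cap had larger mean differences than most members, although 1 library of each group nearly met. Tnni3k, a kinase that binds cardiac troponin I, was at 95.04, 51.3 and 112 CPM in the controls and 155, 151 and 113 CPM in Zeb2 cKO, with a gap of 1.06%. Coq10a, a coenzyme Q binding protein, was at 137, 98.5 and 150.1 CPM in the controls and 223, 151 and 167 CPM in Zeb2 cKO. Kcnd3, the pore subunit of the transient outward potassium current, was at 22.1, 16.6 and 22.8 CPM in the controls and 31.5, 26.5 and 22.9 CPM in Zeb2 cKO, and Hsdl2, a peroxisomal oxidoreductase, at 222, 156 and 244 CPM in the controls and 305, 261 and 246 CPM in Zeb2 cKO. Zeb2 fl/fl replicate 2 was the lowest library in these 4 genes. Against all controls and against replicates 1 and 3 alone, the mean differences were 62.5% and 35.2% for Tnni3k, 40.3% and 25.6% for Coq10a, 31.6% and 20.1% for Kcnd3 and 30.7% and 16.3% for Hsdl2.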
